A study of Mus musculus with 30 samples.

Results

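The data described here are the array signals of Pdc and Mgarp, 2 genes that were selected on their signal in eyes, across adult mouse tissues. Pdc was read by probe Z00024433-1, and Mgarp by probe Z00042556-1, which carries the older symbol 4930583H14Rik in the study's probe lists. They are 2 of the 42006 noncontrol probes of the array. Each gene symbol had 1 probe among the 5971 named in the study's lists, so unnamed probes of these genes may exist. They were chosen by their values in eyes on the same arrays, so all values in eyes are given as a description with no test, and the tests concern the other tissues. The series has 30 two-colour 60-base oligonucleotide arrays, with 2 arrays for each of 15 tissues from C57BL/6 male mice aged 28 weeks by the labels, while the study's methods state a somewhat higher age. Beside eyes these were cerebellum and brain cortex, heart and muscle, stomach with small and large intestine, kidney and bladder, liver, lung, skin, bone and visceral fat, with no treatment and no genetic change in any group. On every array the tissue RNA was labelled with Cy3, and the same reference, a commercial mixture of mouse cell line RNA with added embryonic stem cell RNA, was labelled with Cy5. The replicates came from different animals by the study's methods, although the design text gives fat and bone only 1 replication. The 2 arrays of each of these tissues may thus come from 1 animal. The p-values use a spread pooled over all 15 tissues, so for fat and bone they may not measure the spread between animals.

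Pdc encodes phosducin, a cytosolic protein abundant in photoreceptors that binds the beta and gamma subunits of transducin, the G protein that carries the light signal from the visual pigment. Its hold on these subunits is set by phosphorylation, which differs between light and dark, and it has long been known as a protein of the retina and the pineal gland. Mgarp encodes a glutamic acid-rich protein of mitochondria that is also listed under the names HUMMR and Osap. It is known to act with the Miro proteins (Rhot1 and Rhot2) in the movement of mitochondria along the cytoskeleton, to be induced by low oxygen, and to be present in steroid-producing tissues. A whole eye mixes photoreceptors, other retina, pigment epithelium, lens and cornea, so in such bulk RNA a larger number of cells of a type and more RNA per cell cannot be told apart.

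The sequences below are the ones that measured each gene, 5′ to 3′ as the array files give them. Both hold 21 G or C bases of 60 (35.0%), against a median of 43.3% over all probes. No stretch of 16 bases of either, on either strand, occurs in any of the other 42005 probes, so neither gene shares its probe sequence with another feature of the array. The genes are named from the study's own lists, and the position of the probes within the transcripts was not analysed here.
Pdc probe: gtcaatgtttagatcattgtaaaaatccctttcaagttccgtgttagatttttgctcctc
Mgarp probe: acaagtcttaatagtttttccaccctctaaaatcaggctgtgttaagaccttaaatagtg

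The promoters of both genes, from 250 bases before to 50 bases after the RefSeq start on build GRCm38.p6, are shown because both genes were brightest in the same organ. They differed in base composition, with 38.0% G or C for Pdc and 60.7% for Mgarp, against a median of 52.7% over 32851 promoters of the same length. Capitals mark matches, on either strand, to a hypoxia response core (ACGTG, in 19.6% of all promoters), an Sp1 box (GGGCGG, in 35.7%) and the half-site of the rod factor Nrl (TGCTGA, in 19.5%). The Mgarp window held each of these 3 once, and the Pdc window held none of them. The letters TAATCC, the core bound by the photoreceptor factor Crx and present in 7.06% of promoters, and the TATA box letters TATAAA, present in 13.6%, were in neither window. Each window held 1 E-box (CANNTG, in 72.3% of promoters, not capitalised). A match of letters is a description and shows no binding. The Pdc window is chr1:150319167-150319466 on the plus strand, and the Mgarp window is chr3:51396498-51396797 on the minus strand.
Pdc promoter: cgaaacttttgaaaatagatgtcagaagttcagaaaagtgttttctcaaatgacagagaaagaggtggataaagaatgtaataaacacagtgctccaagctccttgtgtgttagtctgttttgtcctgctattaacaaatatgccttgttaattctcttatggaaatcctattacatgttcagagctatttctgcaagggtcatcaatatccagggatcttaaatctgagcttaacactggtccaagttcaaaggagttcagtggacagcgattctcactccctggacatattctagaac
Mgarp promoter: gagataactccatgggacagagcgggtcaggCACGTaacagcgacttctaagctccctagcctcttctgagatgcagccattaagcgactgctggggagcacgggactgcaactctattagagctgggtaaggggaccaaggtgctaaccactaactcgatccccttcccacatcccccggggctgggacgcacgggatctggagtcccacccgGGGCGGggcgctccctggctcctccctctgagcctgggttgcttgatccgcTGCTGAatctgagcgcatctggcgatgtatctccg

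Between 53.9% and 76.9% of the probes were well above background in Cy3 on an array, by the flag of the scanner software, and 2 arrays of a tissue correlated at a median r of 0.98 over the 21025 probes tested. Fat (r = 0.671), large intestine (r = 0.798) and bone (r = 0.849) had the least similar pairs of arrays. The 30 arrays lay on 11 slides, and both eyes arrays shared a slide with replicate 2 of lung. The eye label was checked against a list of 16 markers of retina, lens, pigment epithelium and cornea, of which 10 were tested. Of these, 5 (Cnga3, Rp1, Crygb, Crygc and Crygf) passed the filter on dim probes through the eyes arrays alone, so that their count is no check. The other 5, Sag, Crx, Cryba2, Cryga and Crygd, were all called higher in eyes. The lens gene Cryge, which also had a probe, was below that filter and at -0.25 and -0.46 in eyes. Among all probes, 5.49% were called higher in eyes at an adjusted p under 0.05 and a log2 difference of at least 2.

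In eyes the Pdc spot was among the brightest on the array, and elsewhere it was close to the background. Its raw Cy3 signal was 140445 scanner units in replicate 1 and 168835 in replicate 2. On the 28 arrays of the other tissues it ranged from 53.0 to 94.5 with a median of 62.4, so the groups were far apart. The Cy3 signal of Pdc was well above background on both eyes arrays, on both stomach arrays and on replicate 1 of skin, and on none of the other 25 arrays.

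Mgarp was also brightest in eyes, at a raw Cy3 signal of 97550.5 in replicate 1 and 87624 in replicate 2, but it had a low signal in more tissues than Pdc. Its Cy3 signal ran from 61.7 to 317 on the 28 other arrays, with a median of 80.4, and was well above background on 18 of them. The brightest of these were replicate 1 of fat (317), both bladder arrays (249 and 297) and both cerebellum arrays (236 and 203). Bone, kidney and liver had no array with Mgarp well above background. In eyes the Cy3 values of both genes were taken by the scanner software from the scan at low gain and scaled up, and neither was flagged as saturated.

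**Figure D1:**
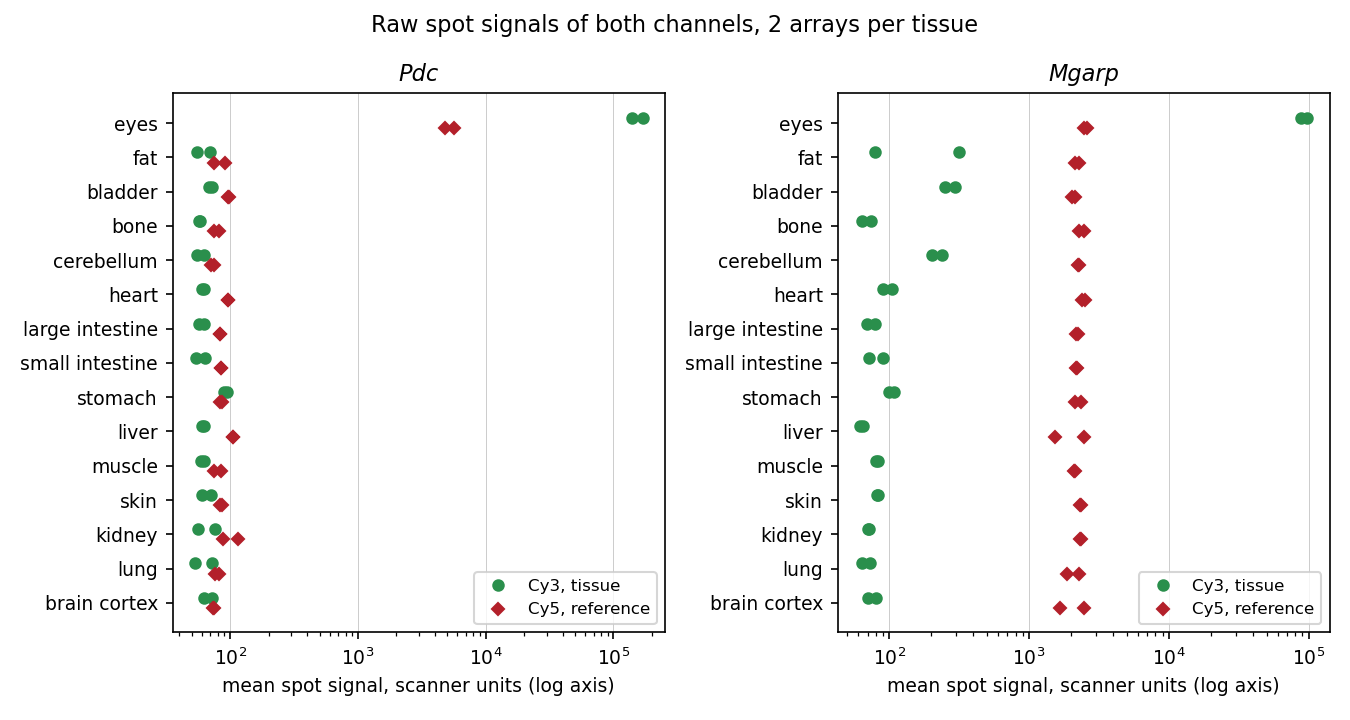
Raw mean spot signals in scanner units (log axis) of the tissue channel (Cy3, green circles) and the reference channel (Cy5, red diamonds) for Pdc and Mgarp, with 2 arrays per tissue. The Cy3 signal was at least 87624 in eyes for both genes and at most 317 elsewhere, and the Cy5 signal of Pdc, but not that of Mgarp, was also raised on both eyes arrays.

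The Cy5 channel held the same reference RNA on all arrays, yet its Pdc signal was not the same on all of them. It ranged from 71.0 to 116 on the 28 arrays of other tissues, with 4 of them well above background, but was 4775 and 5603 on the eyes arrays. The mean in eyes was 61.9 times the median elsewhere, and this rise amounted to 3.30% of the Cy3 signal of the same spots. The Cy5 signal of Mgarp, which was well above background on all 28 other arrays, ran from 1537 to 2515 there and was 2579 and 2460 in eyes, 1.12 times the median. Mgarp was therefore measured against a clear reference signal, and Pdc against a reference signal that was near background except on the eyes arrays.

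Pdc was not alone in this. Of the 71 tested probes with a mean Cy3 signal over 50000 in eyes, 19 had a median Cy5 signal below 300 on the other arrays, and in all 19 the Cy5 signal on the eyes arrays was at least 10 times that median. The rise was between 1.102% and 27.7% of the Cy3 signal, with a median of 7.36%. Pdc, at 3.30%, is 1 of these 19 probes. Mgarp is not, since its reference signal is higher, and its rise of 0.293% was also below the lowest of the 19. Among 8515 probes of equally low reference signal that were not as bright in eyes, 38 had such a rise. These limits were chosen after the values were seen, and the cause of the rise was not tested. A ratio to the reference is held down where the reference signal rises with the tissue signal, and the values of Pdc are therefore given below both as a ratio and as a Cy3 level alone.

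**Figure D2:**
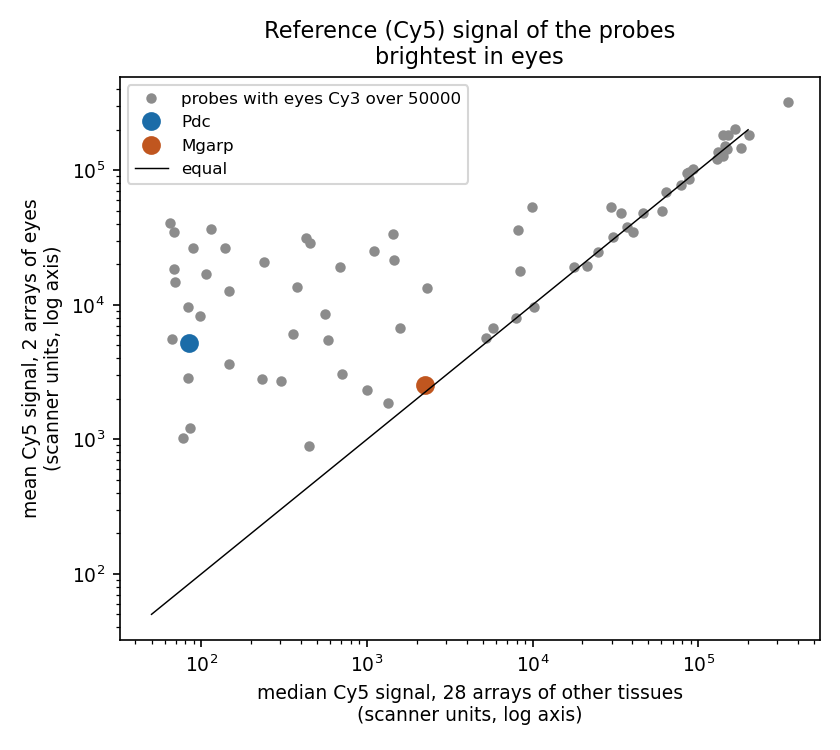
Mean Cy5 (reference) signal on the 2 eyes arrays against the median Cy5 signal on the 28 arrays of other tissues, both in scanner units on log axes, for the probes with a Cy3 signal over 50000 in eyes (grey), with Pdc and Mgarp in colour and a line of equality. Pdc lies far above the line (5189 against 83.8), and Mgarp lies near it (2519 against 2248).

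On the scale of the normalised log2 ratio of tissue to reference, Pdc was 6.94 on both eyes arrays, a mean of 6.94 ± 0.0019 (SD, n = 2), and -0.15 on average over the other 14 tissues. The difference of 7.09 was the 7th highest of 21025 probes. On the Cy3 level alone, normalised across arrays, the eyes mean was 18.21 and the mean of the other tissues 6.42, a log2 difference of 11.79 and the 4th highest. The choice of scale thus moved the Pdc difference by more than 4 log2 units. Both differences and their ranks rest in part on background values outside eyes. On the Cy3 scale eyes exceeded each of the 12 tissues where Pdc was not well above background on any array by at least 3119-fold (fat) to 3831-fold (cerebellum). These bounds set the eyes mean against, on each array, the higher of the lowest signal well above background and the Pdc signal itself.

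Mgarp was 7.14 and 6.90 on the eyes arrays on the log2 ratio scale (mean 7.02 ± 0.17, n = 2) and -2.96 on average over the other 14 tissues. Its difference of 9.98 was the highest of the 21025 probes. On the Cy3 level alone the difference was 9.81, the 14th highest, so for Mgarp the 2 scales gave nearly the same value. By the same bounds, eyes exceeded bone at least 587-fold, liver at least 1125-fold and kidney at least 1459-fold. The bone bound rests on the mean of unlike Cy3 levels, 7.33 in replicate 1 and 8.93 in replicate 2. Against replicate 2 alone it would be lower. Within the slide that eyes shared with replicate 2 of lung, the log2 ratio differed by 7.47 for Pdc and by 10.64 for Mgarp. On the Cy3 level alone these differences were 12.12 and 10.36.

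The summed share of eyes over the 15 tissue means, computed on the linear scale, was 90.6% for the Pdc ratio and 99.6% for its Cy3 level. For Mgarp these shares were 98.5% and 98.3%. Tissue specificity in bits, which is 0 for a gene at the same level in all tissues and 3.91 for a gene in a single tissue of 15, was 3.10 for the Pdc ratio and 3.85 for its Cy3 level. It was 3.74 and 3.72 for Mgarp, so the order of the 2 genes differed between these scales. Outside eyes, no array was well above background in 12 of the 14 tissues for Pdc and in 3 for Mgarp, so the shares and bits rest in part on background values and set no firm order of the genes.

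**Figure D3:**
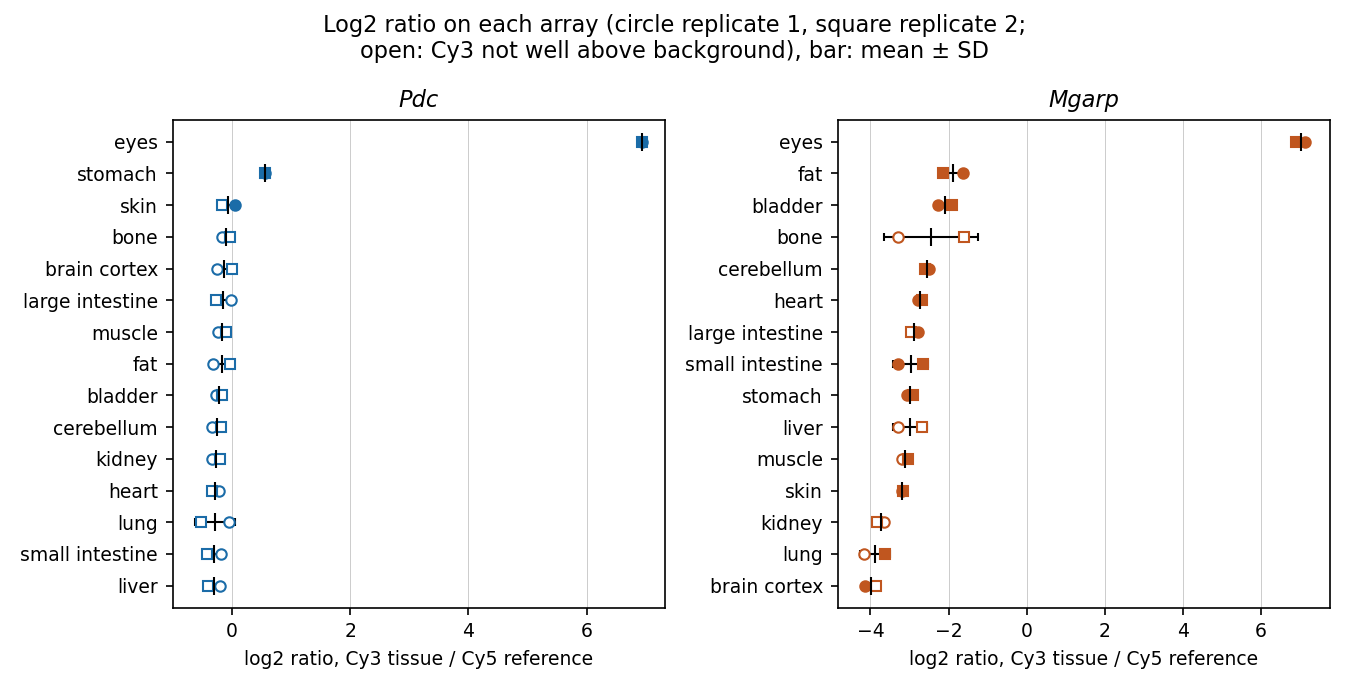
Log2 ratio of tissue (Cy3) to reference (Cy5) for Pdc and Mgarp on each array, with tissues in the order of their means, circles for replicate 1, squares for replicate 2, open symbols for arrays where Cy3 was not well above background, and bars for the mean ± SD (n = 2). Eyes stand at 6.94 and 7.02, and the next tissues are stomach at 0.57 for Pdc and fat at -1.89 for Mgarp.

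Outside eyes, Pdc was highest in stomach, at log2 ratios of 0.57 and 0.56, above every other array of the 13 remaining tissues. Skin followed at 0.05 and -0.16, and bone at -0.16 and -0.03. Brain cortex (-0.25 and -0.005), large intestine (-0.01 and -0.27), muscle (-0.23 and -0.10) and fat (-0.31 and -0.02) came next. Apart from stomach, these arrays overlapped one another.

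The remaining 7 tissues were also close together. Pdc was at -0.27 and -0.17 in bladder, -0.33 and -0.18 in cerebellum, -0.34 and -0.19 in kidney, and -0.22 and -0.34 in heart. Lung (-0.05 and -0.52), small intestine (-0.18 and -0.41) and liver (-0.19 and -0.41) had the lowest means. Of the 14 steps between neighbours in the order of the tissue means, 2 exceeded the pooled SD of the neighbours, those from eyes to stomach (6.38) and from stomach to skin (0.62).

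Whether a gene so uneven between eyes and the rest also differed among the rest was tested with limma's moderated F-test over the 14 other tissues, adjusted by the Benjamini-Hochberg method. It gave an adjusted p of 0.00823 for Pdc and 0.000686 for Mgarp, and 89.4% of all probes passed the same test, so passing it was common. The range of the 14 tissue means was 0.87 log2 units for Pdc and 2.11 for Mgarp, against a median of 2.26 over all probes. A larger range was found in 88.3% of probes than for Pdc, and in 53.9% than for Mgarp. The adjusted p of Pdc (limma F-test) was 0.112 without replicate 1 of stomach, 0.107 without replicate 2, and 0.0727 on the Cy3 level alone.

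In the contrasts of each tissue with the mean of the other 13, Pdc was called in stomach and in no other of the 14 tissues. It was higher there by 0.77 ± 0.12 (log2, SE; limma adjusted p = 6.7e-05), in both arrays, while 16.5% of all probes were called higher in stomach. On the slide that held both stomach arrays, the difference was 0.98 to replicate 2 of small intestine and 0.57 to replicate 1 of large intestine. The raw Cy3 signals behind it were 89.5 and 94.5, so this was a small excess over background. Pdc in stomach remained lower than in eyes by 6.38 on the ratio scale and by 11.15 on the Cy3 level alone. With the scanner software's processed signals the difference of stomach from the other 13 tissues was 2.97.

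Other eye genes did not all share this pattern in stomach. Of 15 tested genes of the eye lists, 2 were higher and 4 lower in stomach, beside 16.5% and 17.6% of all probes. Higher were Rdh10, a retinol dehydrogenase, and the lens crystallin Cryba2 (0.75, limma adjusted p = 0.00272). Lower were Pde6d, Opn4, Myoc and the photoreceptor arrestin gene Sag (-0.38, limma adjusted p = 0.0395). The photoreceptor genes Crx (-0.39, adjusted p = 0.0773 in limma) and Rp1 (-0.18, adjusted p = 0.165 in limma) were not called. Krt10, a keratin of stratified epithelium and the only gene of that list with a named probe, was at log2 ratios of 4.64 and 4.66 in stomach and 5.54 and 5.34 in skin, and its difference in stomach was 3.90. Skin was the only other tissue besides eyes and stomach with a Pdc array well above background. The part of such epithelium in the Pdc value was not tested.

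Outside eyes, Mgarp had log2 ratios of -1.64 and -2.14 in fat, the tissue with the next highest mean on this scale. Bladder was above fat with median centring (differences from the other tissues of 1.34 and 0.98), with processed signals (2.70 and 1.17) and in the study's value table (2.70 and 1.33). The same held with the slide as a random block (0.90 and 0.63) and without replicate 1 of fat (0.96 and 0.91). Fat was above bladder with a normexp offset of 16 (1.59 in fat and 1.35 in bladder) and on the Cy3 level alone (1.21 and 0.95). On the ratio scale Mgarp was at -2.27 and -1.91 in bladder, and at -3.31 and -1.60 in bone, where the arrays differed by more than any other pair. Cerebellum (-2.51 and -2.60), heart (-2.78 and -2.69) and large intestine (-2.80 and -2.95) followed. All of these values were below 0, the reference itself holding a clear Mgarp signal.

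In the lower part of the order, Mgarp was at -3.29 and -2.65 in small intestine, -3.06 and -2.91 in stomach, and -3.29 and -2.69 in liver. It was at -3.18 and -3.04 in muscle and at -3.20 and -3.17 in skin. Kidney (-3.66 and -3.83), lung (-4.16 and -3.62) and brain cortex (-4.14 and -3.85) had the lowest means. Of the 14 steps between neighbours in this order, 5 exceeded the pooled SD, the largest being those from eyes to fat (8.90) and from skin to kidney (0.55).

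Mgarp was called in 5 of the 14 tissues against the mean of the other 13, in contrasts where 14.8% to 26.1% of all probes were called higher and 17.4% to 31.6% lower. It was higher in fat by 1.16 ± 0.27 (log2, SE; limma adjusted p = 0.00327) and in bladder by 0.94 ± 0.27 (limma adjusted p = 0.0113), where 14.8% and 16% of all probes were called higher. It was lower in brain cortex by -1.11 ± 0.27 (limma adjusted p = 0.00177), in lung by -0.998 ± 0.27 (limma adjusted p = 0.00591) and in kidney by -0.84 ± 0.27 (limma adjusted p = 0.0183). The shares of probes called lower were 30.4% in brain cortex, 23.2% in lung and 23.1% in kidney. Both arrays of each of these tissues lay on the same side of the mean of the others. The SE of 0.27 comes from a residual SD of 0.39 pooled over all tissues. That SD includes the bone pair (SD 1.21), where neither Mgarp array was well above background. The lower calls concern signals near background: Mgarp was well above background on 1 array of brain cortex, 1 of lung and none of kidney. The mean raw Cy3 signals there (75.4, 68.5 and 70.9) were not below those of liver (63.4), where Mgarp was not called.

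These differences kept their direction in all alternatives run, while several calls did not hold. With the slide as a random block, the differences were 0.63 in fat, 0.90 in bladder and -0.88 in kidney and were not called (limma adjusted p = 0.199, 0.223 and 0.192), and those in brain cortex and lung and that of Pdc in stomach were kept. With median centring in place of loess, all 3 lower calls were lost with smaller differences, at -0.60 in brain cortex, -0.56 in lung and -0.63 in kidney (limma adjusted p = 0.0766, 0.138 and 0.0922). With processed signals they were called and larger, at -1.96, -1.76 and -1.57 (limma adjusted p = 0.00573, 0.0163 and 0.0333). They were also called when fitted on the deposited value table, at -1.91, -1.81 and -1.56 (limma adjusted p = 0.00361, 0.00768 and 0.0208). Leaving out 1 array ended the calls in fat without replicate 1 (0.91), in bladder without replicate 2 (0.76), in lung without replicate 1 (-0.73), in brain cortex without replicate 1 (-0.97), and in kidney without either array (-0.92 and -0.76). In these fits the tissue keeps 1 array, which is assumed to vary like the arrays of the other tissues. Other tissues were called in some alternatives. Mgarp was higher in cerebellum with median centring (0.74), array weights (0.44), processed signals (2.25), the study's value table (2.13) and without replicate 2 of bone (0.51). It was lower in liver with processed signals (-1.87) and in that table (-1.85), and higher in bone on the Cy3 level alone (0.66) and, with the same assumption for a lone array, without replicate 1 of bone (1.40). Neither bone array of Mgarp was well above background. Within the slide that held both tissues, Mgarp in bladder was above kidney by 1.65.

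The fat result was uneven between its arrays in raw signal. The raw Cy3 signals of Mgarp were 317 in replicate 1 and 79.0 in replicate 2, and the difference was not called in the study's own value table (1.33, adjusted p = 0.0512 in limma), with processed signals (1.17, adjusted p = 0.111 in limma) or with array weights (again 1.16, adjusted p = 0.322 in limma). Replicate 1 of fat also had the lens crystallin genes Crygc and Cryga at log2 ratios of 6.36 and 2.98, close to or below their values in eyes (6.95 and 6.77 for Crygc, 3.97 and 3.85 for Cryga), while replicate 2 had -0.06 and -0.03. Cryba2 (1.03 and -0.03) and Sag (1.08 and 0.33) were also higher on replicate 1 than on replicate 2. Crygb, Rp1 and Pdc were not raised on either fat array. Of the 15 eye-list genes, 3 were called higher in fat, Sag, Cryga and Crygc, and Myoc was called lower, beside 14.8% and 17.4% of all probes. The part of this in the Mgarp value of fat was not tested.

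**Figure D4:**
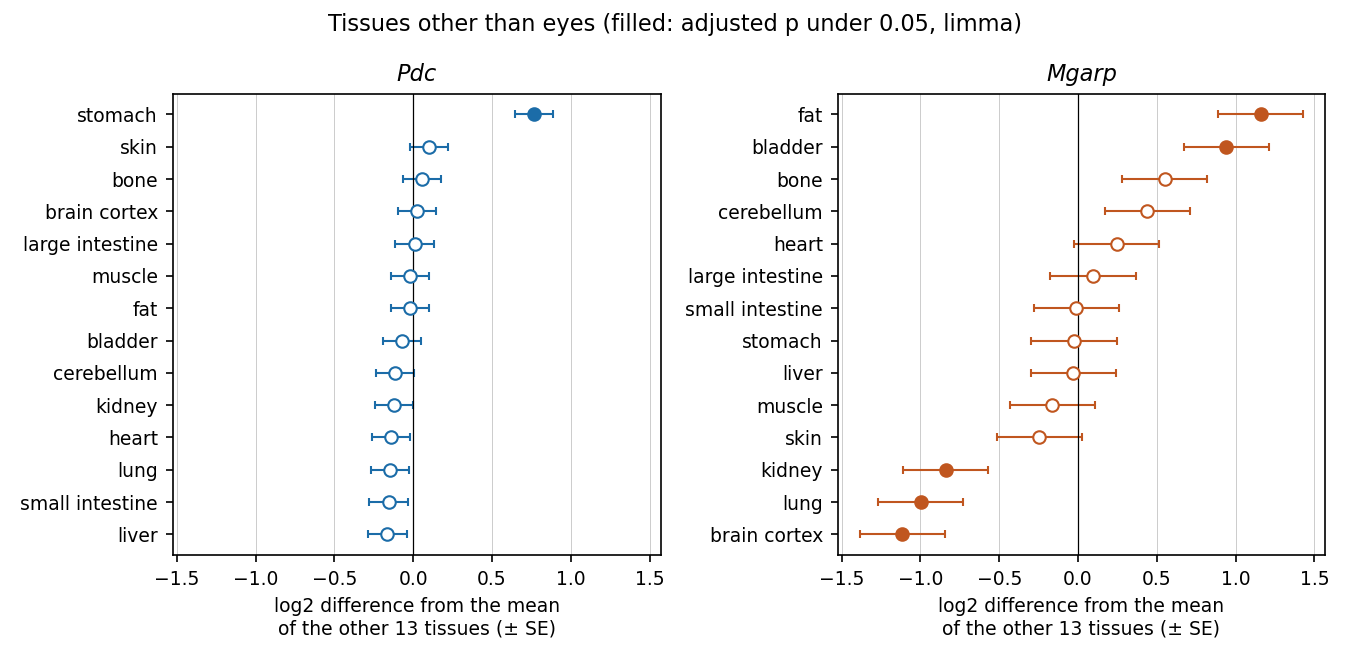
Log2 difference of each of the 14 tissues other than eyes from the mean of the other 13, with its SE, for Pdc and Mgarp, with filled symbols for an adjusted p under 0.05 (limma). Pdc stood out in stomach (0.77), and Mgarp ran from 1.16 in fat to -1.11 in brain cortex.

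Between the 3 pairs of related organs, 1 of 6 differences passed the test. Mgarp was lower in brain cortex than in cerebellum by -1.44 ± 0.37 (log2, SE; limma adjusted p = 0.0166), where 8.71% of all probes differed. All 4 arrays lay in that order, and on the slide that held both tissues, with 1 cortex array, the difference was -1.59. It was called with the slide as a random block (-1.50, limma adjusted p = 0.00234), and with the slide as a fixed block (-1.59, limma adjusted p = 0.000272), a value that rests on the same 1 cortex array. It was not called with median centring (-1.25, adjusted p = 0.0616 in limma) or when any of the 4 arrays was left out, with differences of -1.30 to -1.59. With processed signals (-3.91, limma adjusted p = 0.00285) and in the study's value table (-3.75, limma adjusted p = 0.00168) it was called and larger. The difference of heart from muscle was 0.38 ± 0.37 for Mgarp and -0.11 ± 0.16 for Pdc, and that of small from large intestine was -0.10 ± 0.37 for Mgarp and -0.15 ± 0.16 for Pdc. Pdc differed by 0.13 ± 0.16 between brain cortex and cerebellum. These 5 did not pass, while 24.3% of probes did for heart and muscle and 17.5% for the intestines. With the slide as a fixed block, the difference of small from large intestine was 0.14 for Mgarp, the other direction, and -0.40 for Pdc.

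Other genes of the eye were described from 6 lists, of which few members carry a symbol on this array. Of 31 phototransduction genes, 3 had a named probe, Cnga3 passing the filter through the eyes arrays alone. Of the 3, 1 was called higher in eyes, beside 5.49% of all probes. Sag was at 4.86 and 4.98 in eyes and at most 1.33 elsewhere, a difference of 5.0 ± 0.14 (log2, SE; limma adjusted p = 8.06e-16). Pde6d, whose product escorts prenylated proteins, differed by 1.58 and did not reach the difference of 2, and Cnga3 differed by 0.43.

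In the list of photoreceptor structure and regulators, Rp1 and Crx were tested and called higher in eyes, beside 5.49% of all probes, but Rp1 passed the filter through the eyes arrays alone. Rp1, which encodes a microtubule protein of the outer segment, was at 6.25 and 6.40 in eyes and at most 0.32 elsewhere, a difference of 6.29 ± 0.09. Crx, the homeobox factor of photoreceptors, was at 5.11 and 5.09, a difference of 4.81 ± 0.17, with the highest other array, of liver, at 2.35. Opn4, which encodes the pigment melanopsin of ganglion cells, differed by 2.93, although replicate 1 of heart reached 2.93, close to the 2.94 and 3.06 of eyes. Rdh10 differed by 2.25.

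Of 26 lens genes, 8 had a named probe and 7 passed the filter on dim probes, all of them called higher. Of these, Crygb, Crygc, Crygf and Lgsn passed it through the eyes arrays alone, so a high value in eyes was a condition of their test, and Cryge was not tested. Crygc had the highest difference, 6.85 ± 0.79, with the widest SE of the lens genes and with 1 fat array at 6.36. Lgsn, which encodes the lens protein lengsin, was at 4.66 and 4.72 in eyes and at most 0.29 elsewhere. Myoc, a gene of the outflow tissue of the eye, differed by 1.05 and was highest in muscle (3.85). Over all 6 eye lists, 16 of 113 genes had a named probe and 15 were tested, 6 of them let in by the eyes arrays alone. Among the 9 that also passed the filter through another tissue, 7 were called higher and none lower, beside 5.49% of all probes called higher and 0.851% called lower.

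**Figure D5:**
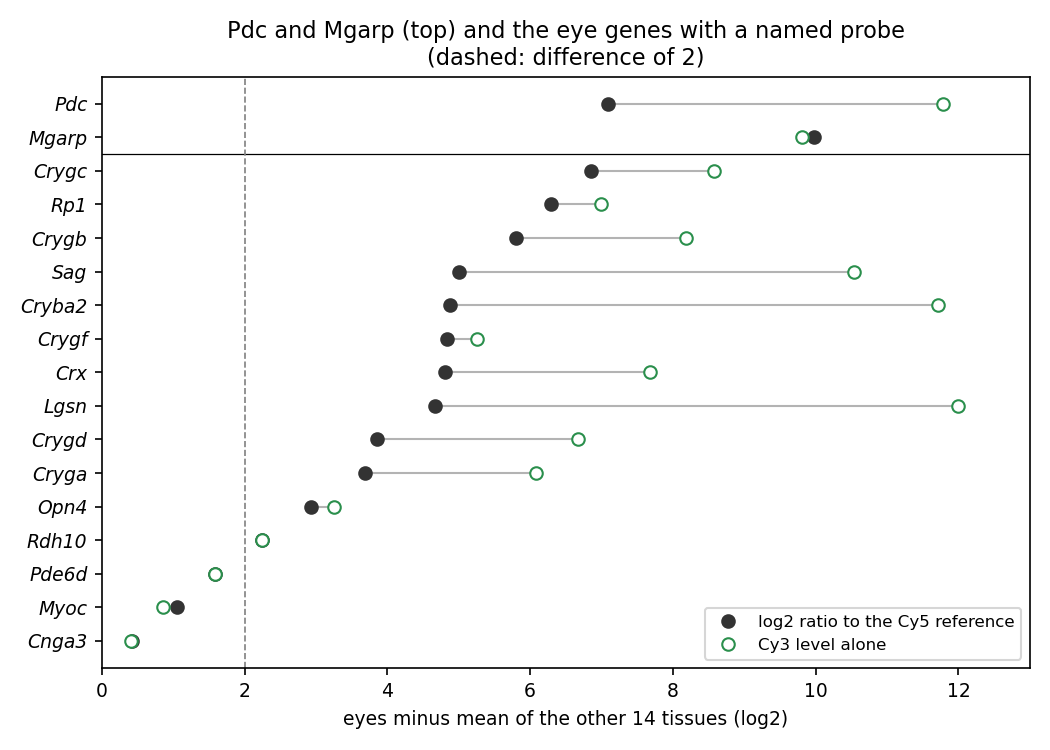
Difference of eyes from the mean of the other 14 tissues, in log2 units, for Pdc and Mgarp (above the line) and the 15 tested genes of the eye lists, as the log2 ratio to the reference (filled) and as the Cy3 level alone (open). The 2 scales lie far apart for Pdc, Sag, Cryba2 and Lgsn, and nearly together for Mgarp, Opn4 and Pde6d.

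The rise of the reference channel was measured for these genes too. The Cy5 signal in eyes was 511 times the median of the other arrays for Lgsn, 295 times for Cryba2 and 86.7 times for Sag, and the Cy3 signals of these genes in eyes were at least 121774 units. For these 3 genes the difference on the Cy3 level alone was 11.99, 11.71 and 10.54, against 4.66, 4.88 and 5.0 on the ratio scale. Pdc had 11.79 and 7.09 on these scales.

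Of the tested partners and relatives of the 2 genes, none reached the required difference of 2 in eyes. Pdcl3, the tested member of the phosducin family, differed by 0.07 ± 0.32 (adjusted p = 0.874 in limma). Among 5 tested genes of mitochondrial movement and shape, none was called, which is near the share of all probes called (5.49% higher, 0.851% lower). Rhot1, which encodes a Miro protein that Mgarp is known to act with, differed by 1.21 ± 0.19 (limma adjusted p = 4.32e-05). Both eyes arrays of Rhot1 (1.1 and 1.01) were above every other array, the highest being 0.66 in muscle. Rhot2, which encodes the other Miro protein, differed by 0.76 ± 0.27, Trak2, an adaptor to the motor, by -0.41 ± 0.35, and the fusion genes Mfn2 and Opa1 by -0.43 ± 0.21 and 0.06 ± 0.24. No gene of the steroid, glia or pineal lists had a named probe. Of other tissues that a dissected eye can carry, the skeletal muscle gene Actn3 was at 1.52 and 1.36 in eyes, a difference of 2.48 that was called higher, with its highest array in bone (5.52), and Krt10 differed by -0.04.

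The named genes whose tissue profiles were most like those of the 2 genes included genes of photoreceptors and lens beside genes known by clone or model names. By Pearson's r of the mean log2 ratios over the 15 tissues, the closest 10 to Pdc were EG433332 (r = 0.993), Crygb (0.992), Rp1 (0.988), Lgsn (0.988), Gm4850 (0.984), Crygf (0.982), BC055402 (0.981), Crb1 (0.979), Crygd (0.972) and Mgarp (0.968). Crb1 encodes a polarity protein of photoreceptors and glia in the retina. For Mgarp they were 1700041A01Rik (r = 0.978), Lgsn (0.973), Crygb (0.972), Crygf (0.972), Rp1 (0.971), BC055402 (0.970), Pdc (0.968), EG433332 (0.966), Gm4850 (0.965) and 2810004I08Rik (0.963). The lists shared 7 of 10 genes. Both genes were chosen on eyes, and r over the 15 tissues rests largely on eyes, so the shared genes are no independent result. At least Rp1, Crygb, Crygf and Lgsn passed the filter on dim probes through the eyes arrays alone. Among all probes, named or not, Rp1 was 29th and Mgarp 79th for Pdc, and Pdc was 40th for Mgarp. Symbols were at hand for 24.0% of the tested probes only, and eyes had a higher mean than the other tissues in all of these genes, the differences being small for some, such as log2 ratios of 0.99 against -0.36 for 2810004I08Rik and 1.21 against 0.01 for Gm4850. Without eyes, Pdc and Mgarp had a Pearson's r of 0.02 over 14 tissues (Spearman's rho 0.02), with stomach highest for Pdc and fat for Mgarp. These correlations are descriptions over tissue means that share the arrays and the reference.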

How the data were processed

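Two-colour arrays of 15 tissues were read from the scanner output of Agilent Feature Extraction 9.5.1.1 (background not subtracted in the mean signals). The deposited intensity values are mean spot signals, median backgrounds and processed signals, in scanner units; per the file headers the scanner joined scans at high and low gain. The authors' value table gives log10 values of 25030 probes, with column medians of 2.50 to 2.65 and centring unstated; differences between its columns followed the log10 ratio of Cy3 to Cy5 (median r = 0.990, slope 0.962), and it was used as an alternative. Mean signals were corrected by normexp (offset 50) over all spots, 475 spots with outlier flags were removed, and loess within arrays gave log2(Cy3/Cy5). Cy3 levels alone came from loess and Aquantile scaling. Probes in the authors' table with Cy3 well above background on both arrays of a tissue were kept (21025). limma 3.58.1 in R 4.3.3 was fitted over all 30 arrays with 1 coefficient per tissue, and p-values were adjusted over all probes kept. The log2 values are not absolute levels, and 2 arrays per tissue limit the precision. Direction follows the labels, with tissue in Cy3 and no dye swap, so a dye effect of a probe stays in its ratio. The test was checked on simulated data with independent arrays and no slide effect, so this check does not cover slide effects.

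The 2 genes and the gene lists were chosen with earlier results of these data known. Named genes were the 2 members, the genes of those lists, the 10 probes with a symbol most correlated with each member, and the 5 nearest measured genes on each side. Symbols of 5971 probes came from the study's lists and were updated through the RefSeq gene table (assembly GRCm38.p6): 3619 were current, 1866 were matched through a synonym and 486 through neither. The spot files give no mapped positions. Alternatives changed the normalization, background correction, reference channel, value table, filter, probe set, blocks, weights, samples and single arrays.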

Additional observations from a re-analysis of the deposited data

How the results depend on the processing

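The log2 difference of eyes from the other tissues kept its sign for both genes in every alternative run. For Pdc it was 5.29 with median centring, 7.43 with processed signals, 7.25 in the authors' table, 7.27 with the slide as a random block and 11.79 on the Cy3 level alone. For Mgarp it was 9.37 with median centring, 10.50 with a normexp offset of 16, 11.77 with processed signals and 11.82 in the authors' table. Leaving out single arrays moved it between 7.08 and 7.11 for Pdc and between 9.86 and 10.10 for Mgarp. The adjusted p of Pdc among the 14 tissues was 0.0727 on the Cy3 level alone and ran from 0.00237 to 0.112 over the 30 fits without 1 array; that of Mgarp ran from 1.71e-06 to 0.00268. Of the contrasts of single tissues, 6 were called in the main setting and 3 with the slide as a random block (consensus correlation 0.692), with 5 to 7 over the fits without 1 array. With median centring 4 were called, 3 of the 6 and 1 other, and 7 with processed signals or in the authors' table, 5 of the 6 and 2 others. Of the organ pairs, 1 was called, 0 with median centring, and 0 to 1 without 1 array. The eye lists had 12 of 15 tested genes called higher, beside 5.49% of all probes, and 6 of the 15 were let in by the eyes arrays alone. Under the filter of 5 tissues, which Pdc did not pass and which left fewer genes tested, 6 were called higher. With all noncontrol probes 30390 probes differed among the 14 tissues, against 18793, as more probes were tested. Slide as a fixed block gave values for cortex against cerebellum, which then rests on 1 cortex array, and for the intestines, since the tissues of the other contrasts are not all linked through shared slides. Replicate numbers were shared by the tissues. The replicate deviations had r from -0.25 to 0.34 over 105 pairs of tissues (32 over 0.1). This does not settle whether the numbers pair arrays by animal, as the deviations may also hold slide effects. With the replicate block the adjusted p was 0.0112 for Pdc and 0.00044 for Mgarp among the 14 tissues, and no call changed. Where the cause of a change is not given, it was not tested. The precision of dim spots is limited by their signal over background.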

Other observations

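In the order of genes of the RefSeq annotation (assembly GRCm38.p6), none of the 10 nearest measured named genes of either gene was called higher in eyes, beside 5.49% of all probes. Around Pdc on chromosome 1, the eyes difference ran from -1.61 for Rgs1, a regulator of G-protein signalling of immune cells, to 0.75 for 2310030A07Rik, the gene next to Pdc. That gene was highest in eyes (0.75 ± 0.13, limma adjusted p = 0.000105) but below the required difference of 2. Ptgs2, the inducible cyclooxygenase gene, was at -0.44 ± 0.69 (log2, SE). Around Mgarp on chromosome 3, it ran from -0.54 for 2400006E01Rik to 1.71 for Sertm1 (limma adjusted p = 2.06e-06, also below 2), which was highest in brain cortex. Ndufc1, a subunit gene of mitochondrial complex I and the nearest of them, with 1 gene between, was at -0.42 ± 0.13. The named genes around Mgarp were sparse, with up to 72 genes between, so this says little of its closest neighbours.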
